A study of Bos taurus with 8 samples.

Results

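The genes described here encode the enzymes and carriers through which a cell takes up glucose, splits it and passes its carbon on. The list held 35 genes, fixed by symbol and not by any measured value: 17 of glycolysis, 6 of the pentose phosphate pathway, 9 of pyruvate handling and 3 of glucose and monocarboxylate transport. Each symbol was found once in a table of 26804 genes, and all 35 were among the 13379 genes tested. Denuded bovine oocytes at the germinal vesicle stage were compared between summer and winter. The 4 summer libraries (A, B, C and E) and the 4 winter libraries (A, B, D and E) came from 1 herd of dry, multiparous beef cows, which the series' description calls Angus and the study a Bos taurus crossbreed. The same cows were aspirated in both seasons, and the sources do not say which pools of the seasons hold the same cows. No genotype or drug treatment separated the groups, and cows of both seasons received the same progesterone insert and follicle-stimulating hormone before ultrasound-guided follicle aspiration. Each library was a pool of a few better-grade oocytes from a pair of cows, and each season was collected in a single session, so season and session cannot be told apart. The study reported a smaller proportion of the best grade among oocytes collected in summer. It does not give the grades of a pool, so season and grade cannot be told apart either.

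Glycolysis turns glucose into pyruvate and gives a small yield of ATP. Its first intermediate can be diverted into the pentose phosphate pathway, which makes NADPH for redox defence and ribose phosphate for nucleotides. Pyruvate is either reduced to lactate by lactate dehydrogenase or carried into mitochondria, where the pyruvate dehydrogenase complex feeds it to the citric acid cycle. Mammalian oocytes are known to use little glucose directly. The cumulus cells around them carry out most of the glycolysis and supply pyruvate, which the oocyte burns in its mitochondria.

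Values are TPM, a share of the transcripts of a library scaled by gene length, so levels can be set side by side between genes. The deposited table keeps no read depth of its libraries, so no counting interval is given for a value. The libraries listed 14477 to 16448 genes above 0, and 2 libraries of a season correlated at 0.928 to 0.975 on the log scale. The labelled cell type was checked with 24 oocyte markers, whose summed level was 20546 to 23566 TPM in summer and 6441 to 14839 TPM in winter. Of these markers 20 were higher in summer by at least 2-fold with an adjusted p under 0.05 (limma), beside 4.4% of all genes tested. Markers of other cells were also present. The summed level of 20 cumulus and granulosa markers was 8414 to 12067 TPM in summer and 9730 to 38816 TPM in winter, with winter E the highest and none of the markers at 0 in every library. The 14 theca and stroma markers summed to 211 to 311 TPM in summer and 497 to 2607 TPM in winter. All 13 tested had a negative difference, and 11 of them were lower by at least 2-fold with an adjusted p under 0.05 (limma), beside 5.17% of all genes tested. Winter A stood apart in the sum of leukocyte markers (675 TPM, against 24.5 to 102.6 TPM in the other libraries of both seasons) and in that of epithelial markers (3521 TPM, against 197 to 1099 TPM). Its leukocyte sum was mostly 1 gene, CD74, at 616 TPM. The leukocyte marker PTPRC was at 0.680 TPM in winter A, against 1.05 TPM in winter B. The erythrocyte markers summed to 715 to 2820 TPM in summer and 537 to 3851 TPM in winter. That sum was almost wholly HBA, with HBB at no more than 2.01 TPM. The endothelial markers summed to 30.8 to 49.2 TPM in summer and 22.1 to 45.5 TPM in winter. The part of these cells in the results below was not tested. In pooled RNA, fewer cells of a type and less RNA per cell cannot be told apart.

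Few of the 35 genes differed by 2-fold between the seasons, and those that passed the test were mostly lower in summer oocytes. A difference is the summer mean minus the winter mean of log2(TPM + 1), in which the 1 added makes the change of a low gene look smaller. The test was limma across all 13379 genes with Benjamini-Hochberg adjustment over all of them. At an adjusted p under 0.05, 7 genes fell in summer (PFKL, PGAM1, ENO2, PKM, TKT, PDHA1 and PDHB) and 2 rose (RPIA and PDK2). These were 7 of 35 against a background of 11.9% of all tested genes lower, and 2 of 35 against 14.9% higher. With a 2-fold limit added, as the study called its genes, 1 fell (ENO2) and 1 rose (RPIA), beside 5.17% and 4.4% of all genes. ENO2 met the filter for testing only through its winter libraries, where it was higher. The difference was negative for 24 genes and positive for 11, beside 6909 negative and 6470 positive of all 13379 genes tested. Its median was -0.34, beside -0.03 over all genes tested. It was smaller than 0.5 in either direction for 26 of the 35, beside 7384 of all genes tested. The summer libraries lay wholly below the winter libraries for 5 genes and wholly above them for 4, where the shares of all genes were 14.1% and 15.4%. With a score of the cumulus and granulosa markers as a covariate, 0 of the 35 genes passed the limit in limma. The score itself did not overlap between the seasons (-0.447 to -0.191 in summer, -0.188 to 1.14 in winter), so that fit separates score and season poorly. A call lost in it need not mean a smaller difference. That of PGAM1 was then -0.81 (SE 0.26) and that of RPIA 0.54 (SE 0.22), and the median of the 35 was -0.14. At an unadjusted p under 0.05 in that fit, 6 of the 35 genes were lower and 1 was higher. No share of all genes is given for counts at an unadjusted p, here or below. At the adjusted p that fit left 169 lower and 17 higher calls over all genes.

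**Figure D1:**
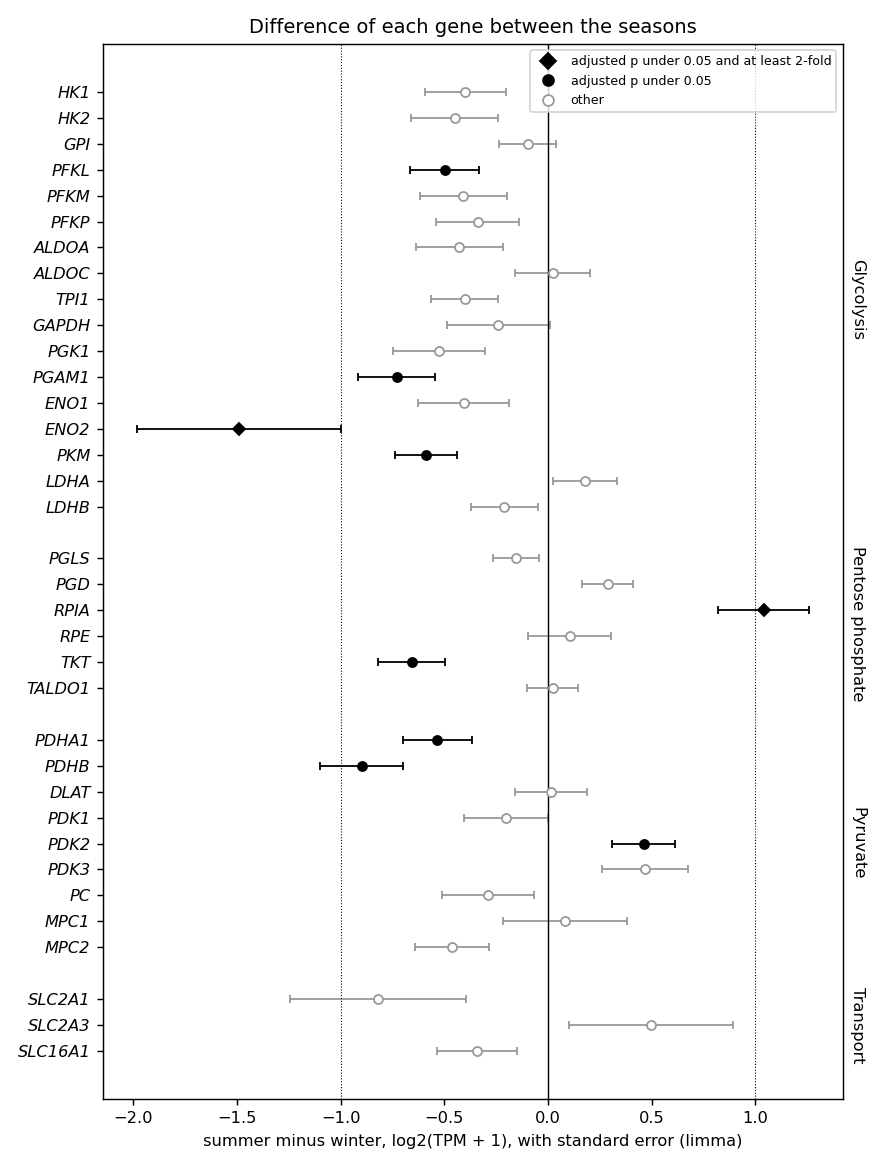
Summer minus winter difference on the log2(TPM + 1) scale for each of the 35 genes, with its standard error from limma, grouped by step. Filled symbols mark an adjusted p under 0.05 and diamonds also a 2-fold difference. Left of 0 lie 15 of the 17 glycolysis genes, where 6909 of all 13379 genes tested were negative, while the other steps lie on both sides.

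The levels spanned more than 3 orders of magnitude. GAPDH and ENO1 were near the top of the oocyte transcriptome, with GAPDH averaging 3181 ± 870 TPM in summer and 3720 ± 806 TPM in winter and ENO1 averaging 2934 ± 474 TPM in summer and 3948 ± 958 TPM in winter (SD, n = 4 each, as for all means below). ALDOA and LDHA also exceeded 1000 TPM on average. The genes of the pyruvate dehydrogenase complex (PDHA1, PDHB and DLAT) averaged 29.7 to 36.3 TPM over all libraries, and ENO2 was the rarest. In the plot of TPM by library the seasons overlap for most genes.

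**Figure D2:**
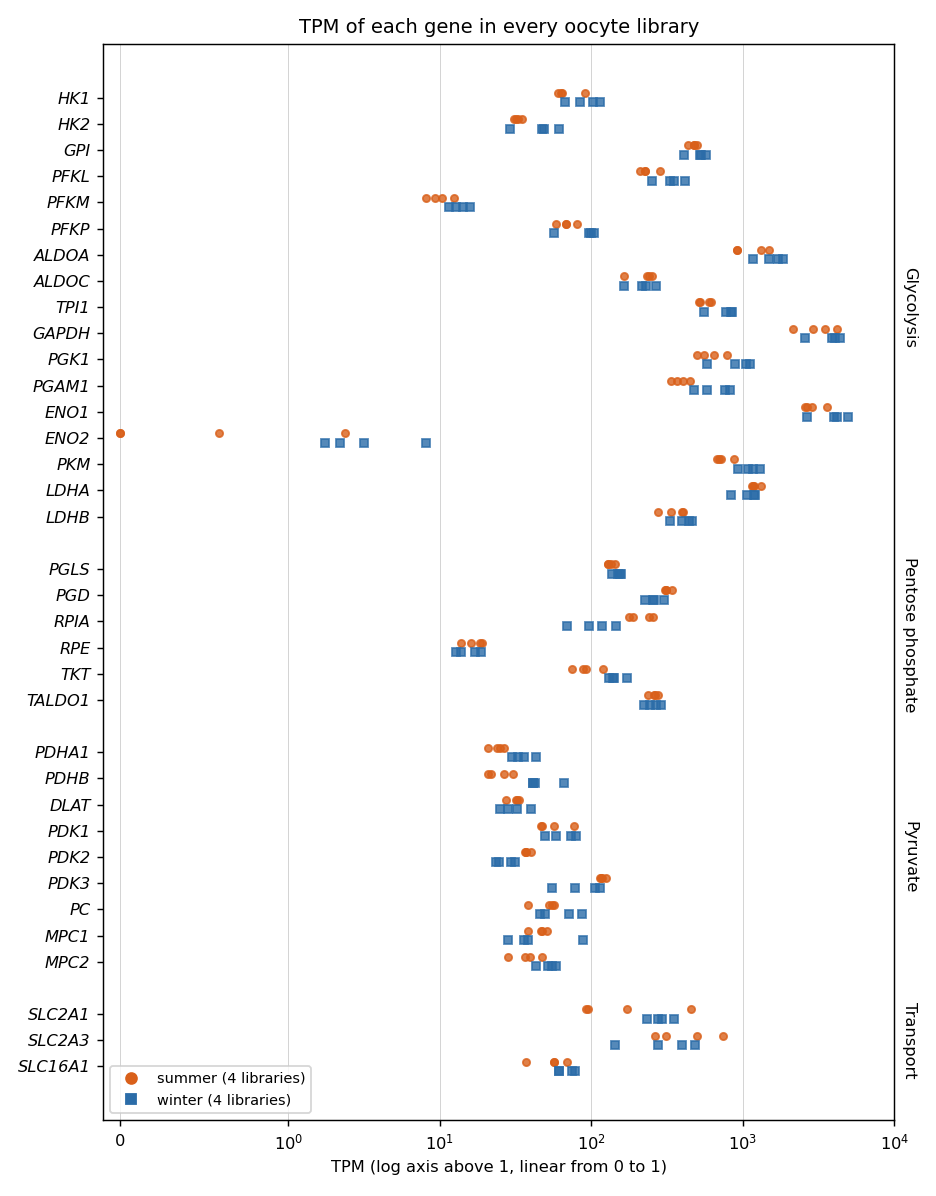
TPM of each gene in every library, on an axis that is logarithmic above 1 TPM and linear between 0 and 1. Orange circles are the 4 summer libraries and blue squares the 4 winter libraries; GAPDH and ENO1 are the highest rows, and ENO2 lies below 10 TPM.

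The summed level of each step was compared as a description. The 17 glycolysis genes held 12749, 11083, 14986 and 10245 TPM in summer A, B, C and E, against 11116, 16798, 16986 and 16885 TPM in winter A, B, D and E. The other 3 winter libraries agreed closely and lay above every summer library, while winter A lay inside the summer range. The means were 12266 ± 2091 TPM in summer and 15446 ± 2888 TPM in winter, or 1.23% and 1.54% of all TPM. The pentose phosphate genes summed to 1036 ± 23.2 TPM in summer and 935 ± 83.0 TPM in winter. The pyruvate genes summed to 427 ± 29.0 TPM in summer and 458 ± 59.1 TPM in winter. For transport the sums were 711 ± 369 TPM in summer, with summer A at 1226 TPM, and 683 ± 186 TPM in winter. Every one of these sums overlapped between the seasons.

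**Figure D3:**
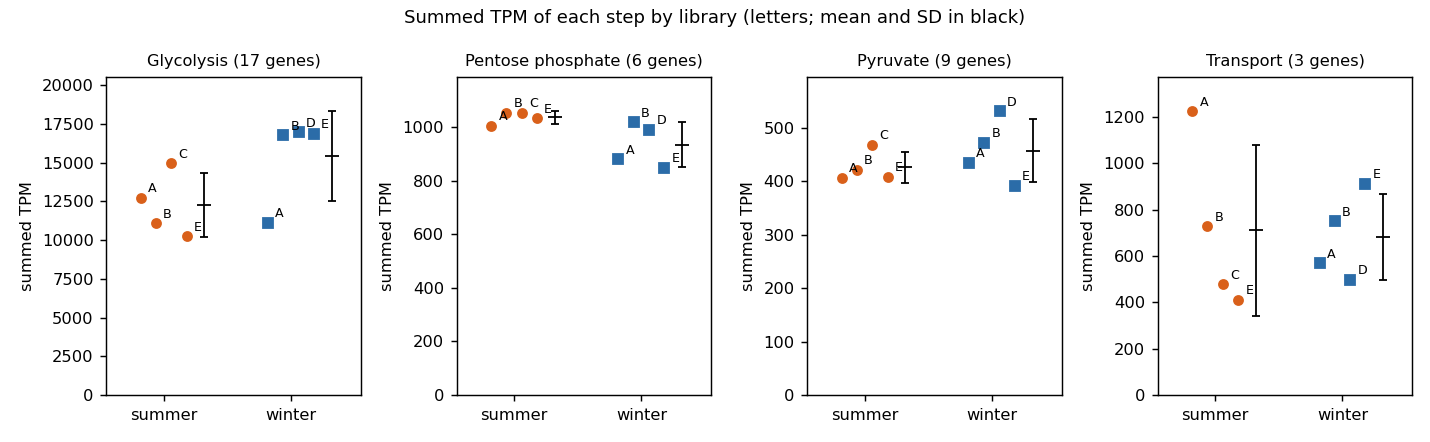
Summed TPM of the genes of each step in each library, labelled by its letter, with the mean and SD of each season in black. Winter A holds 11116 TPM of glycolysis transcripts while the other winter libraries hold 16798 to 16986 TPM, and summer A holds the most transport transcripts (1226 TPM).

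In glycolysis 4 of the 17 genes fell in summer and 0 rose, beside 11.9% and 14.9% of all tested genes. At an unadjusted p under 0.05, 0 of the 17 were higher (limma). The median difference was -0.41. Glucose is first phosphorylated by hexokinase, of which HK1 is the widely used form and HK2 the form that is induced in growing cells. HK1 stood at 60.5, 63.9, 90.6 and 63.2 TPM in summer A, B, C and E and at 67.5, 103.4, 114.7 and 84.4 TPM in winter A, B, D and E. HK2 was at 30.8, 31.96, 34.8 and 32.7 TPM in summer and at 28.9, 48.6, 47.0 and 61.0 TPM in winter. For HK2 winter A was the lowest of all libraries and the other winter libraries lay above all of the summer ones. The differences were -0.40 for HK1 (adjusted p = 0.145, limma) and -0.45 for HK2 (adjusted p = 0.130, limma). GPI, which isomerises glucose 6-phosphate to fructose 6-phosphate, was at 472 ± 28.9 TPM in summer, against 509 ± 70.9 TPM in winter.

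Phosphofructokinase commits the sugar to glycolysis, and its liver-type subunit PFKL was the main form in these oocytes. PFKL fell in summer to 227, 211, 283 and 225 TPM in A, B, C and E, against 252, 329, 415 and 353 TPM in winter A, B, D and E. The ranges overlapped through summer C and winter A. The difference was -0.50 (SE 0.17, adjusted p = 0.0483, limma). This call was lost without any 1 of summer A, B or E or winter B, D or E, with an adjusted p of up to 0.131. The muscle-type subunit PFKM stood at 10.3, 9.31, 12.5 and 8.07 TPM in summer and at 11.5, 15.8, 12.9 and 14.3 TPM in winter (difference -0.41, adjusted p = 0.163, limma). PFKP, the platelet type, which in mice oocytes are known to promote in cumulus cells, held 67.8, 58.7, 80.9 and 68.0 TPM in summer against 56.8, 96.8, 98.9 and 103.7 TPM in winter. Here too winter A was the lowest library and the other winter libraries were the highest (difference -0.34, adjusted p = 0.221, limma).

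Aldolase splits the 6-carbon sugar. ALDOA was at 1321, 920.4, 1497 and 917 TPM in summer and at 1166, 1487, 1709.9 and 1842 TPM in winter, with a difference of -0.43 (adjusted p = 0.151, limma). ALDOC, the brain-type aldolase, held 239.7, 165, 231 and 253 TPM in summer and 216, 164, 231 and 266 TPM in winter, a difference of 0.02. TPI1, which interconverts the triose phosphates, averaged 562 ± 54.4 TPM in summer and 751 ± 137 TPM in winter (difference -0.40, adjusted p = 0.0867, limma). GAPDH, the dehydrogenase often used as a reference gene, was at 3471, 2928, 4192 and 2132 TPM in summer and at 2559, 4399, 4068 and 3853 TPM in winter. Its libraries overlapped widely and its difference was -0.24 (adjusted p = 0.488, limma). PGK1, which makes the first ATP of the pathway, averaged 621 ± 129 TPM in summer and 907 ± 238 TPM in winter (difference -0.52, adjusted p = 0.101, limma).

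The smallest adjusted p values of glycolysis were those of PGAM1 and PKM, enzymes of its last reactions. PGAM1 (ENSBTAG00000012697), the mutase that moves the phosphate of phosphoglycerate, fell to 405, 370.1, 448 and 337 TPM in summer A, B, C and E, against 475, 763, 822 and 577 TPM in winter A, B, D and E. No summer library reached the lowest winter one. The difference was -0.73 (SE 0.19, adjusted p = 0.0184, limma). PKM (ENSBTAG00000001601), the pyruvate kinase of most tissues, fell to 714, 697, 874 and 676 TPM in summer, against 929.8, 1164, 1294 and 1076 TPM in winter, again without overlap. Its difference was -0.59 (SE 0.15, adjusted p = 0.0185, limma). Both calls were lost without summer B, summer E or winter D, where the adjusted p reached 0.0553 for PGAM1 and 0.0598 for PKM at most.

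Enolase, which works between PGAM1 and PKM, was almost wholly ENO1. ENO1 was at 2882, 2644, 3619.5 and 2591 TPM in summer and at 2637, 4206, 4020.3 and 4929.6 TPM in winter, a difference of -0.41 (adjusted p = 0.186, limma). ENO2, the neuronal enolase, was listed at 2.38 and 0.587 TPM in summer A and B and at 0 in summer C and E, against 8.17, 3.17, 1.75 and 2.19 TPM in winter A, B, D and E. Winter A held the highest value, and summer A lay above winter D and winter E. The fitted difference was -1.49 (SE 0.49, adjusted p = 0.0459, limma), and at so low a level it depends on the 1 TPM added before the logarithm. Genes were tested where their level passed a limit in all 4 libraries of at least 1 season. ENO2, at 0 in summer C and E, passed it only in winter, the season where it was higher. Without that filter on low values the call was lost. The call held without summer A and was lost without any other library (adjusted p up to 0.113). This gene at a few TPM was the whole of the 2-fold count in its direction.

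Lactate dehydrogenase turns pyruvate into lactate and back. LDHA, the subunit favouring lactate production, was at 1179, 1147, 1325 and 1173 TPM in summer and at 838, 1209, 1191 and 1060.0 TPM in winter (difference 0.18, adjusted p = 0.396, limma). LDHB, the subunit favouring the return of lactate to pyruvate, was at 399, 337, 405 and 276 TPM in summer and at 332, 465, 443 and 394 TPM in winter (difference -0.21, adjusted p = 0.349, limma). Neither passed the test, and both overlapped between the seasons.

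The number of glycolysis genes past the limit changed with winter A. It was the lowest winter library for 15 of the 17 genes and lay within the summer range for 10 of them. For 10 of the 17 the other winter libraries all lay above all summer libraries. The share of all genes with that pattern was not counted. Without winter A, 8 glycolysis genes were lower at an adjusted p under 0.05 (limma): HK2, PFKP, TPI1, PGK1 and ENO1 joined PGAM1, PKM and PFKL, while ENO2 was lost. Over all 13379 genes 1383 were lower in that fit, beside 1594 with every library. Leaving out a library that is mostly the lowest raises the winter mean of these genes by construction. The median difference of the 17 genes without winter A was -0.54. Without summer B, summer E or winter D, 0 of the 17 passed in limma, where 4 were lower and 0 higher at an unadjusted p under 0.05 in each fit, against 6 and 0 with every library. The lower calls over all genes were fewer in these fits too, at 918, 1162 and 885, beside 1594. Winter A is the library with the raised CD74 and epithelial markers given above. Their part in its lower glycolysis transcripts was not tested.

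In the pentose phosphate pathway 1 of 6 genes rose and 1 fell, near the shares of all tested genes (14.9% and 11.9%). RPIA (ENSBTAG00000002866), the isomerase that makes ribose 5-phosphate, rose to 178, 257, 239.9 and 189 TPM in summer A, B, C and E, against 118, 145, 95.9 and 69.4 TPM in winter A, B, D and E. The lowest summer library lay above the highest winter one. The mean was 216 ± 38.5 TPM in summer and 107 ± 32.01 TPM in winter, and the difference was 1.04 (SE 0.22, adjusted p = 0.00951, limma). RPIA kept an adjusted p under 0.05 without any 1 library (at most 0.0324), but it fell short of 2-fold without summer B, summer C or winter E (0.85 at the lowest). Within winter the libraries had the same order for RPIA as for the summed oocyte markers, B, A, D and E from high to low. Within summer they did not: RPIA ran B, C, E and A, and the markers ran B, E, A and C. The marker sum was itself higher in summer, at 22143 ± 1310 TPM, against 10385 ± 3524 TPM in winter, so that dividing by it lowers the summer value of every gene relative to its winter value. Per 1000 TPM of oocyte markers, a ratio computed after the values were seen, RPIA stood at 8.22, 10.9, 11.7 and 8.29 TPM in summer and at 10.65, 9.75, 10.4 and 10.8 TPM in winter. On that ratio the seasons overlapped for RPIA. Some other genes with a positive difference were put on it as well, but not ALDOC, RPE, TALDO1, DLAT, MPC1 and SLC2A3. PDK2 was then lower in summer without overlap (1.58 to 1.80 TPM, against 2.10 to 3.66 TPM in winter). So were PGD (13.1 to 15.1 TPM, against 20.5 to 35.0 TPM), PDK3 (4.83 to 5.61 TPM, against 7.04 to 11.5 TPM) and LDHA (48.7 to 64.5 TPM, against 75.8 to 164.6 TPM). The seasons overlapped for LDHC, BPGM, GYG1, PHKA2 and SLC5A1, genes of the lists further below.

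TKT (ENSBTAG00000003758), the transketolase that links the pathway back to glycolysis, fell to 91.7, 87.9, 118.8 and 74.0 TPM in summer, against 131, 139.6, 172 and 141 TPM in winter. All 4 summer libraries lay below all 4 winter libraries. The difference was -0.66 (SE 0.16, adjusted p = 0.0159, limma), and of the 8 libraries only the removal of winter D took it past the limit (adjusted p = 0.0510). TALDO1, the transaldolase that works beside TKT on the same sugars, was at 259 ± 15.5 TPM in summer, against 255 ± 27.6 TPM in winter, a difference of 0.02.

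The NADPH-forming part of the pathway showed no call. PGD, the phosphogluconate dehydrogenase and the most abundant gene of the pathway, held 309, 308, 311 and 343 TPM in summer and 255, 304, 261 and 225 TPM in winter. The summer libraries were all above the winter ones, by a narrow margin over winter B. The difference was 0.29 (adjusted p = 0.107, limma), and without winter B it was 0.36 with an adjusted p of 0.0460. PGLS, the lactonase before it, was at 134 ± 7.06 TPM in summer, against 149 ± 8.51 TPM in winter (difference -0.15, adjusted p = 0.312, limma). RPE, the epimerase of ribulose 5-phosphate, was at 16.8 ± 2.40 TPM in summer, against 15.6 ± 2.82 TPM in winter (difference 0.11, adjusted p = 0.710, limma).

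**Figure D4:**
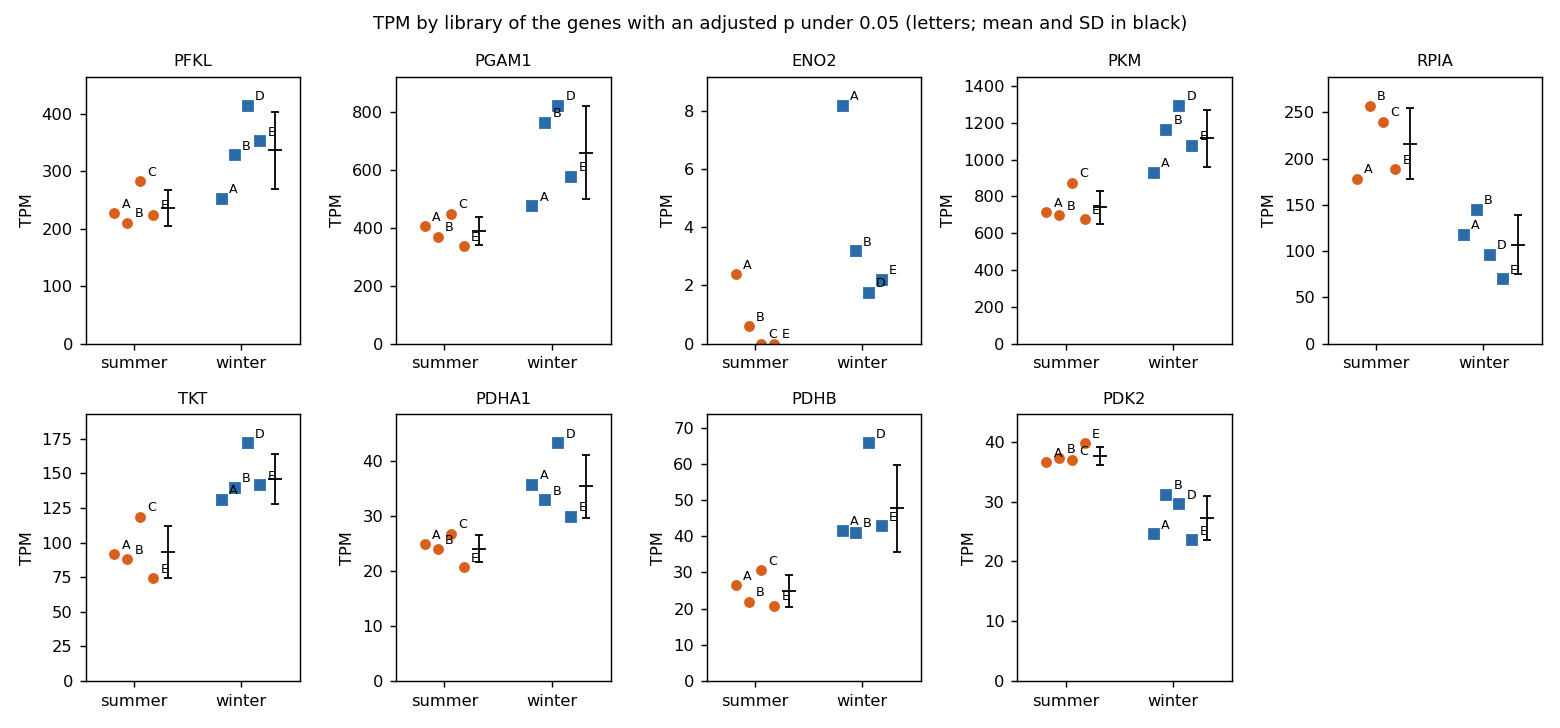
TPM in each library, labelled by its letter, of the 9 genes with an adjusted p under 0.05; black marks are the mean and SD, left out for ENO2, which was listed at 0 in summer C and E. RPIA and PDK2 are the only panels with summer above winter, and in the PFKL and ENO2 panels the seasons overlap.

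Of the 9 pyruvate genes 2 fell in summer and 1 rose, near the shares of all tested genes (11.9% and 14.9%). PDHB (ENSBTAG00000021724) and PDHA1 encode the 2 kinds of subunit of pyruvate dehydrogenase proper, the enzyme that commits pyruvate to the citric acid cycle. PDHB fell to 26.4, 21.9, 30.6 and 20.8 TPM in summer A, B, C and E, against 41.5, 40.9, 65.8 and 42.8 TPM in winter A, B, D and E. The seasons did not overlap, and winter D was set well above the other winter libraries. The difference was -0.90 (SE 0.20, adjusted p = 0.0113, limma). It passed the limit without any 1 library, with -0.74 at the smallest and an adjusted p of 0.0374 at most.

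PDHA1 fell to 24.8, 23.9, 26.7 and 20.7 TPM in summer, against 35.7, 32.8, 43.2 and 29.9 TPM in winter. The libraries did not overlap. The difference was -0.53 (SE 0.17, adjusted p = 0.0392, limma), a call lost without summer B, C or E or winter A or D (adjusted p up to 0.114). DLAT, the acetyltransferase core to which these subunits bind, did not move with them: it averaged 31.3 ± 2.67 TPM in summer and 31.3 ± 6.40 TPM in winter, a difference of 0.01.

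The pyruvate dehydrogenase kinases switch the complex off by phosphorylating the subunit that PDHA1 encodes. PDK2 rose to 36.6, 37.2, 36.9 and 39.8 TPM in summer, against 24.6, 31.1, 29.6 and 23.6 TPM in winter, without overlap. The difference was 0.46 (SE 0.15, adjusted p = 0.0442, limma), and the call held only without winter B (adjusted p up to 0.103 without another library). PDK3, the most abundant of the 9 genes, was at 117, 114, 115 and 125 TPM in summer and at 77.8, 113.5, 106 and 54.9 TPM in winter. Its lowest summer library and winter B were almost level. The difference was 0.47 (adjusted p = 0.113, limma), and without winter B it was 0.61 with an adjusted p of 0.0471. PDK1, the kinase gene known as a target of hypoxia signalling, was at 46.6, 56.3, 76.8 and 47.4 TPM in summer and at 49.8, 79.6, 73.4 and 58.1 TPM in winter, a difference of -0.20 (adjusted p = 0.472, limma).

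Pyruvate enters mitochondria through a carrier built from MPC1 and MPC2. MPC1 was at 50.9, 47.2, 46.8 and 38.3 TPM in summer and at 88.4, 38.0, 35.8 and 28.1 TPM in winter. Winter A was the highest of all libraries and the other winter libraries were the lowest of all. The difference was 0.08 (adjusted p = 0.852, limma) with every library and 0.42 (adjusted p = 0.101, limma) without winter A. MPC2 was at 39.3, 36.7, 47.2 and 28.2 TPM in summer and at 43.3, 54.9, 51.4 and 58.4 TPM in winter (difference -0.46, adjusted p = 0.0771, limma). PC, the carboxylase that turns pyruvate into oxaloacetate, averaged 50.6 ± 8.60 TPM in summer and 63.4 ± 19.3 TPM in winter (difference -0.29, adjusted p = 0.344, limma).

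In transport 0 of the 3 genes passed, beside 11.9% lower and 14.9% higher of all tested genes, and 0 had an unadjusted p under 0.05 (limma). SLC2A3, which encodes the high-affinity glucose transporter GLUT3, was the most abundant, at 736, 498, 314 and 264 TPM in summer A, B, C and E and at 274, 395, 144 and 485 TPM in winter A, B, D and E. SLC2A1, which encodes the widespread glucose transporter GLUT1, was at 453, 173, 95.5 and 91.6 TPM in summer and at 235, 295, 276 and 353 TPM in winter. Summer A held the highest level of both genes, and for SLC2A1 the other summer libraries lay below all winter ones. The difference of SLC2A1 was -0.82 (SE 0.42, adjusted p = 0.168, limma), and without summer A it was -1.31 with an adjusted p of 0.00961. That of SLC2A3 was 0.50 (SE 0.40, adjusted p = 0.359, limma). SLC16A1, the carrier MCT1 for lactate and pyruvate, was at 37.0, 56.8, 68.8 and 56.5 TPM in summer and at 60.8, 60.8, 78.5 and 74.2 TPM in winter (difference -0.34, adjusted p = 0.201, limma).

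The share of each paralog within its family was described, since the levels of genes outside the family cancel out of it. A share can still change with the mix of cells in a library, and the oocyte marker sums differed between the seasons. The part of that mix in the shares was not tested. For lactate dehydrogenase and for the glucose transporters the seasons did not overlap. LDHA made up 74.7%, 77.3%, 76.6% and 81.0% of the LDHA and LDHB sum in summer A, B, C and E, against 71.6%, 72.2%, 72.9% and 72.9% in winter A, B, D and E. The winter shares were tight, and the mean difference was 3.78 to 5.87 percentage points when any 1 library was left out. SLC2A1 made up 38.1%, 25.8%, 23.3% and 25.8% of the SLC2A1 and SLC2A3 sum in summer and 46.1%, 42.7%, 65.7% and 42.1% in winter. The mean share was lower in summer by 15.4 to 24.2 percentage points when any 1 library was left out. SLC2A3 was thus the larger of the 2 in every library except winter D.

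For the other families the shares overlapped. HK1 made up 67.8 ± 2.998% of hexokinase in summer and 66.8 ± 5.93% in winter. PFKL made up 75.0 ± 0.540% of phosphofructokinase in summer and 76.7 ± 2.33% in winter. ALDOA made up 83.6 ± 3.61% of aldolase in summer and 87.5 ± 2.36% in winter. Among the pyruvate dehydrogenase kinases PDK3 held 55.6 ± 3.96% in summer and 48.2 ± 5.31% in winter, and PDK1 held 26.6 ± 5.08% in summer and 36.5 ± 4.23% in winter. MPC1 made up 49.8% to 57.6% of the carrier transcripts in summer and 32.5% to 67.1% in winter, the highest being winter A.

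**Figure D5:**
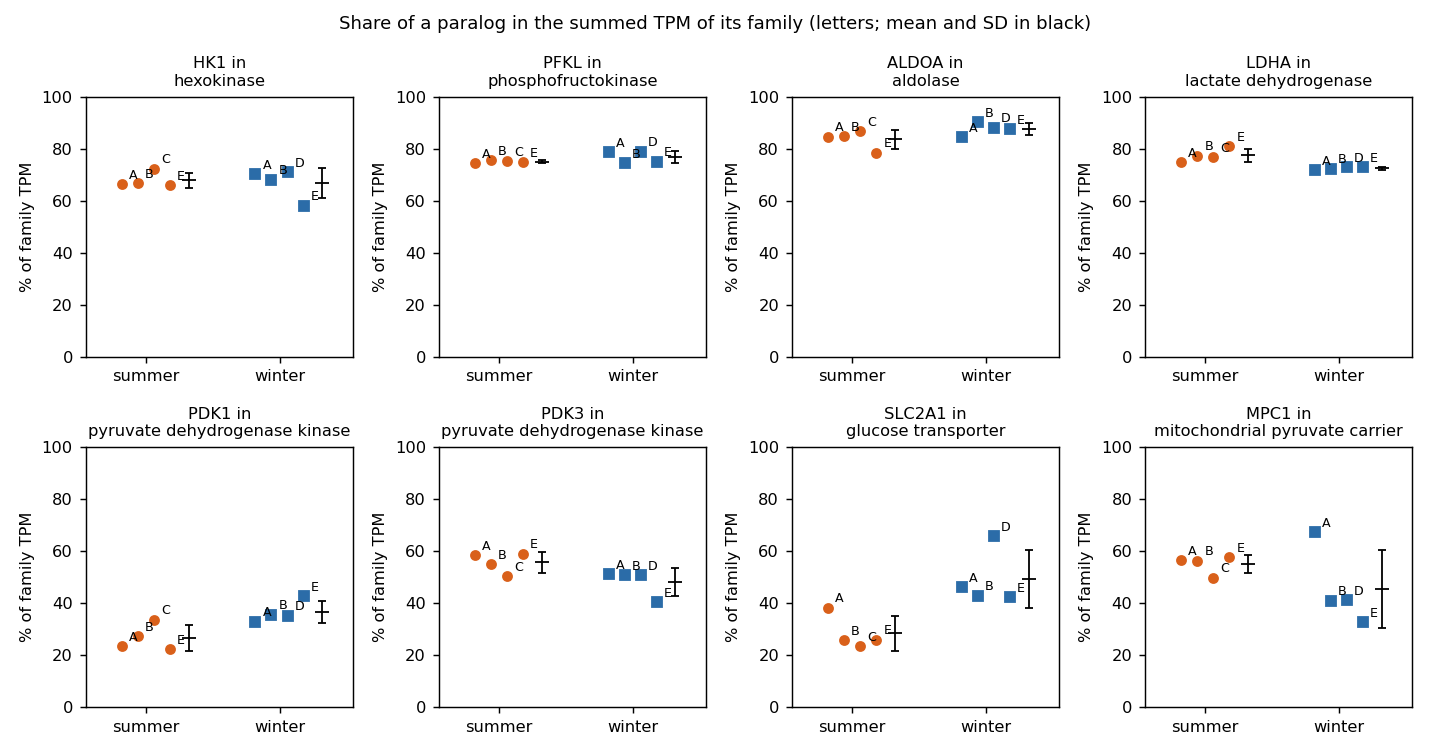
Share of 1 paralog in the summed TPM of its family, in percent, for each library labelled by its letter, with the mean and SD of each season in black. LDHA (74.7% to 81.0% in summer, 71.6% to 72.9% in winter) and SLC2A1 (23.3% to 38.1% in summer, 42.1% to 65.7% in winter) are the panels without overlap.

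Genes of neighbouring pathways were counted from lists drawn up by textbook membership. Behind each count at the adjusted p stand the shares of all tested genes, 11.9% lower and 14.9% higher. With the cumulus and granulosa score as a covariate, 3 genes of all these lists passed the limit in limma: RBKS, PYGL and IDH2, all lower in summer. Among 10 further glycolysis enzymes tested, 2 rose and 1 fell. LDHC, the lactate dehydrogenase best known from germ cells, rose to 108.6, 89.0, 98.4 and 87.8 TPM in summer, against 45.1, 45.6, 46.4 and 30.3 TPM in winter. BPGM, the mutase that makes 2,3-bisphosphoglycerate, rose to 624, 635, 512 and 683 TPM in summer, against 318, 401, 256 and 215 TPM in winter. Both were well separated between the seasons, with differences of 1.19 (SE 0.17, adjusted p = 0.00354, limma) for LDHC and 1.07 (SE 0.19, adjusted p = 0.00593, limma) for BPGM. Both calls held without any 1 library and were lost with the covariate (adjusted p = 0.0602 for LDHC and 0.107 for BPGM, limma). Per 1000 TPM of oocyte markers they overlapped, at 3.78 to 5.00 TPM in summer, against 3.07 to 5.05 TPM in winter for LDHC and at 24.9 to 30.0 TPM in summer, against 27.0 to 33.4 TPM in winter for BPGM. MINPP1, a phosphatase that can act on the product of BPGM, fell to 10.8 ± 2.56 TPM in summer, against 21.9 ± 2.13 TPM in winter (difference -0.98, adjusted p = 0.0103, limma), a call lost with the covariate (adjusted p = 0.150, limma).

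Around glucose 6-phosphate, 1 of 7 regulators and gluconeogenesis genes fell and 0 rose, and 3 of 9 further pentose phosphate genes fell and 0 rose (limma). At an unadjusted p under 0.05, 1 gene of each list was higher. The regulators past the limit were 3 without winter B, where 1589 of all genes were lower, beside 1594 with every library. G6PC3, a widely expressed glucose 6-phosphatase, was at 56.7 ± 6.29 TPM in summer, against 82.7 ± 10.1 TPM in winter (difference -0.54, adjusted p = 0.0213, limma), a call lost without summer B or winter D (adjusted p up to 0.0678). PFKFB4, which sets the level of the phosphofructokinase activator fructose 2,6-bisphosphate, was at 21.2 ± 3.34 TPM in summer, against 30.4 ± 3.62 TPM in winter (adjusted p = 0.0515, limma). FBP1, the phosphatase that reverses phosphofructokinase, was listed at 0 in summer A and E and reached no more than 5.64 TPM in any library. Of the pentose phosphate genes, PRPS1, which turns ribose 5-phosphate into the nucleotide precursor PRPP, fell to 39.6 ± 4.15 TPM in summer, against 69.0 ± 6.23 TPM in winter (difference -0.79, SE 0.14, adjusted p = 0.00569, limma). RBKS, the ribokinase, fell to 3.85 ± 1.11 TPM in summer, against 12.02 ± 4.39 TPM in winter (difference -1.37, adjusted p = 0.0134, limma). H6PD, which runs the NADPH-forming steps in the endoplasmic reticulum, fell to 12.4 ± 1.59 TPM in summer, against 25.0 ± 6.64 TPM in winter (difference -0.92, adjusted p = 0.0176, limma). These 3 calls held without any 1 library, but with the covariate those of PRPS1 (adjusted p = 0.102, limma) and H6PD (adjusted p = 0.355, limma) were lost. PRPSAP1, a partner of PRPP synthetase and the most abundant of the list, differed by 0.07.

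Among 13 further pyruvate genes ME3 passed the limit and no other did, also at an unadjusted p under 0.05 (limma). ME3, a mitochondrial malic enzyme, fell to 0.432, 1.92, 0.835 and 0.404 TPM in summer, against 2.37, 7.17, 5.29 and 5.69 TPM in winter (difference -1.69, adjusted p = 0.0103, limma), a call lost with the covariate (adjusted p = 0.169, limma). At these summer levels ME3 probably met the filter for testing only through winter, the season where it was higher. The call held without that filter, but the size of the difference depends on the 1 TPM added before the logarithm. DLD, the dehydrogenase subunit that completes the pyruvate dehydrogenase complex, was at 37.4 ± 8.99 TPM in summer, against 50.0 ± 10.9 TPM in winter (adjusted p = 0.146, limma). PDPR, a regulatory subunit of the phosphatase that reactivates the complex, had a difference of -0.46 (adjusted p = 0.162, limma), and the cytosolic malic enzyme ME1, the most abundant of the list, had one of 0.07.

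Of 12 further transporters 1 fell and 1 rose. BSG, basigin, which escorts the lactate and pyruvate carrier MCT1 to the cell surface, fell to 294, 329, 321 and 308 TPM in summer, against 477, 511, 538 and 520.1 TPM in winter. The libraries of each season were tight and wide apart. The difference was -0.71 (SE 0.11, adjusted p = 0.00473, limma). The call held without any 1 library and was lost with the covariate (adjusted p = 0.0561, limma). SLC5A1, the sodium-coupled glucose transporter SGLT1, rose to 29.7 ± 6.99 TPM in summer, against 16.2 ± 2.99 TPM in winter (difference 0.83, adjusted p = 0.0215, limma). That call was lost without summer B, summer E or winter E (adjusted p up to 0.0661). SLC2A13, an inositol transporter of the glucose transporter family, had a difference of -1.07 (adjusted p = 0.105, limma) at no more than 5.39 TPM.

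Of 16 glycogen genes 3 fell and 2 rose, beside 11.9% and 14.9% of all tested genes. Without any 1 of summer B, summer C, winter A, winter D and winter E, 1 was lower. Over all genes 885 to 1383 were lower in those fits, beside 1594 with every library. PYGL, the liver-type glycogen phosphorylase, which releases glucose from glycogen, fell to 21.5, 29.8, 36.2 and 24.7 TPM in summer, against 105, 118, 122 and 62.9 TPM in winter. That was the lowest p in the list, with a difference of -1.80 (SE 0.23, adjusted p = 0.00322, limma). PHKA2, a regulatory subunit of the kinase that activates phosphorylase, rose to 151 ± 21.9 TPM in summer, against 86.1 ± 16.9 TPM in winter (difference 0.81, adjusted p = 0.0102, limma). GYG1, glycogenin, the protein primer on which glycogen is built, rose to 143 ± 23.4 TPM in summer, against 80.9 ± 18.1 TPM in winter (difference 0.83, adjusted p = 0.0111, limma). All 3 calls held without any 1 library, and with the covariate those of PHKA2 (adjusted p = 0.246, limma) and GYG1 (adjusted p = 0.254, limma) were lost.

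The hexosamine branch leaves glycolysis at fructose 6-phosphate to make amino sugars, and cumulus cells use it for the hyaluronan they lay down as they expand. In it 2 of 9 genes fell and 0 rose, and 0 were higher at an unadjusted p under 0.05 (limma). UAP1, which makes the activated amino sugar, fell to 48.6 ± 9.69 TPM in summer, against 91.9 ± 21.8 TPM in winter (difference -0.90, adjusted p = 0.0122, limma), a call lost with the covariate (adjusted p = 0.283, limma). GFPT2, which catalyses the committing reaction, fell to 25.9 ± 9.07 TPM in summer, against 56.2 ± 23.1 TPM in winter (difference -1.07, adjusted p = 0.0280, limma), a call lost without summer B, summer C, winter A or winter D (adjusted p up to 0.0736). GNPNAT1, the acetyltransferase of the branch, had a difference of 0.35 (adjusted p = 0.122, limma).

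Of 15 hypoxia and glucose sensing regulators 3 fell and 0 rose, beside 11.9% and 14.9% of all tested genes, and 0 were higher at an unadjusted p under 0.05 (limma). With the covariate 0 of the 15 passed, where 3 were lower at an unadjusted p under 0.05. HIF1A, the oxygen-sensitive factor that drives many glycolysis genes, fell to 533, 582.1, 478 and 496 TPM in summer, against 815, 582.5, 1036 and 1172 TPM in winter. Summer B and winter B were almost level. The difference was -0.74 (adjusted p = 0.0243, limma), which without any 1 of winter D, winter E, summer C and summer E had an adjusted p of up to 0.0714 and was lost. EGLN1, the hydroxylase that marks HIF1A for breakdown, fell to 79.2 ± 18.8 TPM in summer, against 123 ± 9.41 TPM in winter (difference -0.66, adjusted p = 0.0192, limma), lost without summer B or winter D (adjusted p up to 0.0588). MLXIP, a glucose-sensing transcription factor, fell to 12.03 ± 3.49 TPM in summer, against 22.6 ± 5.30 TPM in winter (difference -0.87, adjusted p = 0.0244, limma), lost without summer B, summer E or winter D (adjusted p up to 0.0745).

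Downstream of pyruvate dehydrogenase, 6 of 18 citric acid cycle genes fell and 0 rose, beside the backgrounds of 11.9% and 14.9% (limma), and 0 were higher at an unadjusted p under 0.05. Without summer B or winter D, 3 of the 18 fell, in fits where 918 and 885 of all genes were lower, beside 1594 with every library. IDH3A and IDH3B encode subunits of the NAD-linked isocitrate dehydrogenase of the cycle, and IDH2 encodes the NADP-linked mitochondrial form. IDH3A fell to 46.2 ± 4.41 TPM in summer, against 85.0 ± 20.4 TPM in winter (difference -0.84, adjusted p = 0.00962, limma). IDH2 fell to 38.6 ± 6.33 TPM in summer, against 76.0 ± 17.7 TPM in winter (difference -0.94, adjusted p = 0.00966, limma). IDH3B fell to 70.8 ± 11.3 TPM in summer, against 114.6 ± 22.5 TPM in winter (difference -0.68, adjusted p = 0.0166, limma). All 3 calls held without any 1 library, and for all 3 the seasons did not overlap. MDH2, the mitochondrial malate dehydrogenase and the most abundant gene of the list, was at 431 ± 20.4 TPM in summer, against 564 ± 128 TPM in winter (difference -0.36, adjusted p = 0.123, limma). With the covariate IDH2 was still lower, and the calls of IDH3A (adjusted p = 0.232, limma) and IDH3B (adjusted p = 0.203, limma) were lost.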

How the data were processed

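RNA of denuded oocytes was measured by poly(A) RNA sequencing in 4 summer and 4 winter pools, grouped by the titles in the labels. The deposited values are TPM, which the authors computed per gene after mapping. Of the aligners, CLC Genomics Workbench stands in the methods of the study and Bowtie2 2.2.2 in the submitters' processing notes, which also list bcl2fastq, DESeq2 and build ARS-UCD 1.2, so the source of the table was not settled. All libraries sum to the same total, so the table itself keeps no depth per library and no counting error can be given. The counting is not stated to use strand, so reads of overlapping or antisense genes, or of processed copies such as those of GAPDH, could not be told apart.

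Genes with a zFPKM above -3 in all 4 libraries of a season were kept. The test was a linear model in limma (version 3.58.1, under R 4.3.3) on log2(TPM + 1), season being the only term and eBayes run with a trend, with Benjamini-Hochberg adjustment. This replaces the count model of the study, since TPM values are not counts. The script was tested on simulated data. The same cows gave both seasons, yet season is the only term, since the sources do not match pools across seasons, and the p-values reflect only how far pools of a season differ. Sums and paralog shares are descriptions without a test. Members, lists and tests were chosen with earlier results of these data known. Every member is named. Values in each library are given for members past the p limit, for the most abundant member of a step and for paralog families. Each further pathway list contributes its 3 genes of smallest p and its most abundant gene. The fit was repeated with other pseudocounts, filters on low values, normalizations, variance trends and library weights, with a covariate for cumulus and granulosa markers, with a term for the library letter, and without each library in turn over the same tested genes. The fit without both libraries of letter A was added after the data were seen. Neither gene coordinates nor sequences were used here.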

Additional observations from a re-analysis of the deposited data

Results flagged for a closer look

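In groups of 4 libraries, the gap between the highest or lowest library and the nearest other was divided by the range of the group. Ratios above Dixon's critical value are given, which chance passes in about 1 of 20 groups. Of 104 groups screened 14 passed, 5 of them among the 70 gene-by-season groups. No explanation was tested.

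Winter A stood apart most often. The ratio was 0.995 for the summed level of all 35 genes (13002 TPM, against 19008 to 19039 TPM in the other winter libraries) and 0.968 for the summed glycolysis genes (11116 TPM, against 16798 to 16986 TPM). It was 0.852 for PFKP (56.8 TPM, against 96.8 to 103.7 TPM), 0.836 for MPC1 (88.4 TPM, against 28.1 to 38.0 TPM) and 0.88 for the ENO1 share of enolase (99.69%, against 99.92% to 99.96%).

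Summer C stood apart for HK1 (0.887, at 90.6 TPM against 60.5 to 63.9 TPM in the other summer libraries), for the HK1 share of hexokinase (0.879, at 72.2% against 65.9% to 66.7%) and for the MPC1 share of the mitochondrial pyruvate carrier (0.831, at 49.8% against 56.3% to 57.6%). Summer E did so for PGD (0.915, at 343 TPM against 308 to 311 TPM) and for the PFKM share of phosphofructokinase (0.899, at 2.68% against 3.32% to 3.39%). Winter D held more PDHB (0.926, at 65.8 TPM against 40.9 to 42.8 TPM), and winter E held a lower PDK3 share of the kinases (0.951, at 40.2% against 50.6% to 51.1%). The SLC2A1 share of the glucose transporters passed in both seasons, at 0.835 for summer A (38.1%, against 23.3% to 25.8%) and 0.8291 for winter D (65.7%, against 42.1% to 46.1%).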

How the results depend on the processing

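No difference of a called gene changed sign. The 1 gene called lower at 2-fold (ENO2) became 0 with a pseudocount of 5 TPM, no filter, quantile normalization, median centring or the cumulus and granulosa covariate, and 2 with array weights; leaving out 1 library gave 0 to 2. The 1 called higher (RPIA) became 0 with quantile normalization or the covariate and was 0 to 1 over the left-out libraries. At the adjusted p alone, the 7 lower genes became 15 with array weights (where the lower calls over all genes were 2345, beside 1594 in the unweighted fit) and 0 with the covariate, and 1 to 10 over the left-out libraries (10 without winter A). The 2 higher genes became 1 without a trend and 0 with the covariate, and 1 to 4 over the left-out libraries. Over all genes the left-out libraries gave 885 to 1589 lower and 1080 to 2263 higher calls at the adjusted p. With summer A and winter A both left out, which was chosen after seeing the data, 2 and 1 passed at 2-fold and 11 and 1 at the adjusted p, lower and higher. Over all genes that fit called 712 and 881 at 2-fold and 1480 and 2214 at the adjusted p. The cause was not tested. Each step's summed TPM moved by less than its spread under every left-out library.

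The same cows gave both seasons, and the study treated some pools of the seasons as counterparts. Libraries of the seasons share the letters A, B and E, but the sources do not say that a letter marks the same cows, summer C and winter D have none of their letter, and the deviations from the season means correlated at 0.0492 for A, 0.138 for B and 0.201 for E, so the letters were not taken as pairs. With the letter as a replicate block, 0 of the 35 genes were lower and 0 higher at either limit (limma), where 7 lower and 2 higher had an unadjusted p under 0.05. Of the named genes of the other lists LDHC, BPGM, PYGL and IDH2 passed with the block. Over all genes that fit called 296 lower and 179 higher at 2-fold, where 692 and 589 were called without the block, and the covariate fit called 161 and 9. Without winter B or winter E the higher calls over all genes at 2-fold were 983 or 271. The table keeps no depth by which to judge low values such as those of ENO2.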
